A study of Mus musculus with 14 samples.

Results

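The SLC25 family is the group of genes for the mitochondrial solute carriers, and here it was followed through mouse oocytes with and without Clpx. Members were all genes whose symbol in the deposited count tables reads Slc25a followed by a number, whatever their values. This gave 46 genes among the 18562 listed in either table. Of these, 45 were listed for germinal vesicle (GV) oocytes, 43 for ovulated oocytes and 42 for both. Slc25a2, Slc25a18 and Slc25a47 were listed for GV oocytes alone and Slc25a41 for ovulated oocytes alone. Uncoupling proteins and the carriers Mtch1 and Mtch2, which belong to the same protein family under other names, were left to a separate list.

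SLC25 carriers sit mostly in the inner mitochondrial membrane and move nucleotides, phosphate, keto acids, amino acids, cofactors and metal ions between the cytosol and the matrix. Each is a single chain built from a repeated unit, and most work by exchange, taking a molecule in as they let another out. A growing oocyte stores many mitochondria and depends on their oxidation of pyruvate, so it needs ADP/ATP exchange, phosphate import and shuttles for reducing equivalents. GV oocytes wait in the prophase of meiosis and still have their nucleus, whereas oocytes that have been ovulated have gone on with meiosis, with almost no new transcription in the interval, so that stored transcripts are kept, lengthened at their poly(A) tail or degraded.

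The series asks what CLPX, the unfoldase of a protease in the mitochondrial matrix, does in oocytes. All 4 groups carry floxed Clpx, with the genotype given as Clpx fl/fl for every library, although the titles of the 3 ovulated WT libraries read Clpxfl/f. The libraries labelled WT have no Cre, and those labelled CKO also carry Zp3-Cre, whose promoter, from a zona pellucida gene, is active in growing oocytes. There were 4 libraries of each genotype at the GV stage and 3 of each after ovulation, made with SMART-Seq2, which copies polyadenylated RNA from its tail and amplifies it. The labels speak of single-cell samples but do not give the oocytes or mice behind a library, the ages or the batches, so p-values measure the spread between these libraries, which may be in part technical. Library totals were between 25086506 and 28471453 estimated counts. Levels are given as CPM, counts per 1000000 counts, scaled to TMM library sizes over the 14 libraries unless stated otherwise.

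The labels were first checked on Clpx itself, which stood at 58.1, 39.6, 40.0 and 39.6 CPM in the 4 GV WT libraries and at 0.676, 0.940, 1.36 and 1.44 CPM in the 4 GV CKO libraries. In ovulated oocytes it stood at 19.1, 18.5 and 17.0 CPM in WT and 0.465, 0.575 and 0.269 CPM in CKO. Every CKO library was below every WT library of its stage. All 13 oocyte markers were found in each group, with a summed level between 14662 and 49491 CPM per library. The summed granulosa and cumulus markers were at 37.1 to 58.1 CPM in GV and 75.4 to 155.4 CPM in ovulated libraries. Those of theca, stroma, endothelium and blood were at 17.0 to 39.9 and 56.4 to 131.8 CPM. Both sums were higher in every ovulated library. However, all marker sums were scaled to TMM library sizes within each stage apart, so the stages are not on a common scale. Of the 11 markers in the second sum, 5 were at 0 or not listed in ovulated WT and 4 in ovulated CKO. At the GV stage these were 0 in WT and 2 in CKO. Of 14 granulosa and cumulus markers 9 were tested between stages. Kitl, Ptgs2 and Cyp19a1 rose in WT (log2 fold changes 1.54, 3.88 and 0.80, edgeR adjusted p = 0.0028, 0.013 and 0.024). In CKO, Kitl and Has2 rose (1.27 and 2.53, edgeR adjusted p = 0.011 and 0.028) and Fshr fell (−4.54, edgeR adjusted p = 0.0065). The part of other cell types in the stage results was not tested. Some granulosa and cumulus markers were at 0 or not listed at either stage. These were Amh, Ptx3 and Tnfaip6 in GV WT, and Ptx3 and Tnfaip6 in GV CKO. After ovulation they were Amh and Foxl2 in WT, and Amh, Foxl2, Ptx3 and Amhr2 in CKO.

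Promoters are shown for 6 members that the results turn on, to set the letters upstream of carriers with high and low levels side by side. Slc25a31, Slc25a5 and Slc25a4 encode the ADP/ATP carriers, Slc25a1 encodes a carrier that fell with maturation, and Slc25a16 and Slc25a38 encode 2 that rose. Each sequence is the stretch before a transcript start in RefSeq on GRCm38.p6 (mm10), written 5′ to 3′ on the gene's strand. The windows of Slc25a16 and Slc25a38 end within the first bases of the gene as RefSeq bounds it, the other 4 just before it. Capitals mark 4 motifs on either strand: GGGCGG, the CCAAT box, the box with the letters TATAAA, and GCGCANGCGC, the motif of the factor NRF1. A base can belong to more than 1 motif. The regions are chr3:40708621-40708870 (plus strand) for Slc25a31, chrX:36795347-36795596 (plus) for Slc25a5, chr8:46211063-46211312 (minus) for Slc25a4, chr16:17928220-17928469 (minus) for Slc25a1, chr10:62920383-62920632 (plus) for Slc25a16 and chr9:120110132-120110381 (plus) for Slc25a38.
Slc25a31: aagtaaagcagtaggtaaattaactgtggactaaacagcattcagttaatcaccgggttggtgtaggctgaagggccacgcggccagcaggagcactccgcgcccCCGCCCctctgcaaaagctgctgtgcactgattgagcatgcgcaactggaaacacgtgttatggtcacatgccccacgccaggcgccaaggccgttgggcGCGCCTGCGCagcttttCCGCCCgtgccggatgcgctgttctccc
Slc25a5: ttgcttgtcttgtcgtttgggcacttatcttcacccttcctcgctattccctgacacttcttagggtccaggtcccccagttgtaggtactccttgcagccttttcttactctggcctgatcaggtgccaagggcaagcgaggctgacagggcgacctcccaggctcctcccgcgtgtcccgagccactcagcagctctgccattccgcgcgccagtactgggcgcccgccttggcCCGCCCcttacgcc
Slc25a4: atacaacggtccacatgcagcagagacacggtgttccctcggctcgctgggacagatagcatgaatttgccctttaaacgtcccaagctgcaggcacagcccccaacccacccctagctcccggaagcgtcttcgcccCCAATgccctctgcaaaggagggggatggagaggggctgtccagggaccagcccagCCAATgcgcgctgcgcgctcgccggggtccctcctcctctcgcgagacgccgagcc
Slc25a1: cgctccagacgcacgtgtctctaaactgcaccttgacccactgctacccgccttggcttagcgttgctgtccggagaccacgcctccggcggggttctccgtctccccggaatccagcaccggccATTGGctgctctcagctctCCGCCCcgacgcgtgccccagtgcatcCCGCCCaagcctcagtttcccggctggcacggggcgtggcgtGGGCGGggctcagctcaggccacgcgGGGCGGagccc
Slc25a16: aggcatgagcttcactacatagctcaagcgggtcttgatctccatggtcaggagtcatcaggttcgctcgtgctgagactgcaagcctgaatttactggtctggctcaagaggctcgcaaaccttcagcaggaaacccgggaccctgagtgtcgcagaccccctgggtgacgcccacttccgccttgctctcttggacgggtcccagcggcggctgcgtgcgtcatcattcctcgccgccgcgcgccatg
Slc25a38: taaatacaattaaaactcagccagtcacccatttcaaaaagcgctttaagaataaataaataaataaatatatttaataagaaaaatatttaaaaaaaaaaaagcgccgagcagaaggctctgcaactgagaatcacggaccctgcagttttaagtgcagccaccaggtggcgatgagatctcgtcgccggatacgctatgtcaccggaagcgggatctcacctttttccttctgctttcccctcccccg

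Slc25a31 holds the NRF1 motif, the letters bound by a regulator of nuclear genes for mitochondria, and 2 copies of GGGCGG, a motif of SP-type factors. Slc25a5 holds 1 copy of GGGCGG, Slc25a4 holds 2 copies of CCAAT and none of GGGCGG, and Slc25a1 holds 4 of GGGCGG and 1 of CCAAT. None of these letters was found in the windows of Slc25a16 or Slc25a38. RefSeq promoters were matched for 35 of the 46 members, 45 start sites in all. GGGCGG was found in 68.9% of these 45 promoters and in 32.7% of all 32851 mouse promoters of that table, CCAAT in 44.4% against 33.8%, TATAAA in 4.44% against 12.4%, and the NRF1 motif in 4.44% against 3.74%. The NRF1 motif was in 2 members, Slc25a3 and Slc25a31. Member promoters had a median of 12 CpG pairs and 57.2% G and C, against 6 pairs and 52.4% in all promoters. Among members higher in ovulated than in GV oocytes in both genotypes, 2 of the 4 with a promoter held GGGCGG and 1 held CCAAT. Among those lower in both genotypes, 4 of the 6 with a promoter held GGGCGG and 4 held CCAAT. With so few genes on either side these counts are a description.

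Levels were compared between members by FPKM, the authors' fragment count scaled to transcript length and library size. The most abundant carrier transcripts were Slc25a17, Slc25a5 and Slc25a31 in GV oocytes, and Slc25a48 joined them in ovulated oocytes. Slc25a17, which encodes a peroxisomal carrier of coenzyme A and related cofactors, had 138 ± 22.0 FPKM (SD, n = 4) in GV WT and 138 ± 43.7 FPKM (SD, n = 4) in GV CKO. Slc25a5, the ADP/ATP carrier of most dividing tissues, had 104 ± 17.2 FPKM (SD, n = 4) in GV WT, and Slc25a31, the ADP/ATP carrier known from germ cells, had 84.6 ± 8.58 FPKM (SD, n = 4). Slc25a5 overlapped both of the others in GV WT, whereas the lowest library of Slc25a17, 113, was above the highest of Slc25a31, 94.4. All 4 values of Slc25a31 in GV WT, 75.2 and above, were higher than the highest of Slc25a3, 61.1. Slc25a3, the phosphate and copper carrier, followed with 49.8 ± 12.6 FPKM (SD, n = 4).

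Slc25a48 was next at 38.7 ± 16.9 FPKM (SD, n = 4), and it is known as a choline carrier. Slc25a26, for S-adenosylmethionine, had 37.1 ± 17.9 FPKM (SD, n = 4). Slc25a15, for ornithine, had 35.6 ± 2.50 FPKM (SD, n = 4). From Slc25a3 through Slc25a4, the uncoupling-like Slc25a14 and Slc25a35 down to the glutathione carrier Slc25a39 (17.1 FPKM), the libraries of each neighbour in the order overlapped. In all, 16 members had a GV WT mean of at least 10 FPKM, 12 lay between 1 and 10, and 17 were under 1. The median member had 2.80 FPKM, against 1.14 for all genes listed.

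In ovulated WT oocytes Slc25a5 (114 ± 2.98 FPKM; SD, n = 3), Slc25a17 (113 ± 40.7; SD, n = 3) and Slc25a48 (105 ± 15.8; SD, n = 3) led, and their libraries overlapped. The lowest library of Slc25a48, 86.5 FPKM, was above the highest of Slc25a31, 84.3, which came next with 71.4 ± 16.2 FPKM (SD, n = 3). Slc25a15 (61.0 FPKM), Slc25a3 (59.8), Slc25a26 (42.3) and the glycine carrier Slc25a38 (40.4) completed the first 8, each overlapping the next. The stage tables were scaled apart by the authors, so FPKM is ranked here within a stage only.

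**Figure D1:**
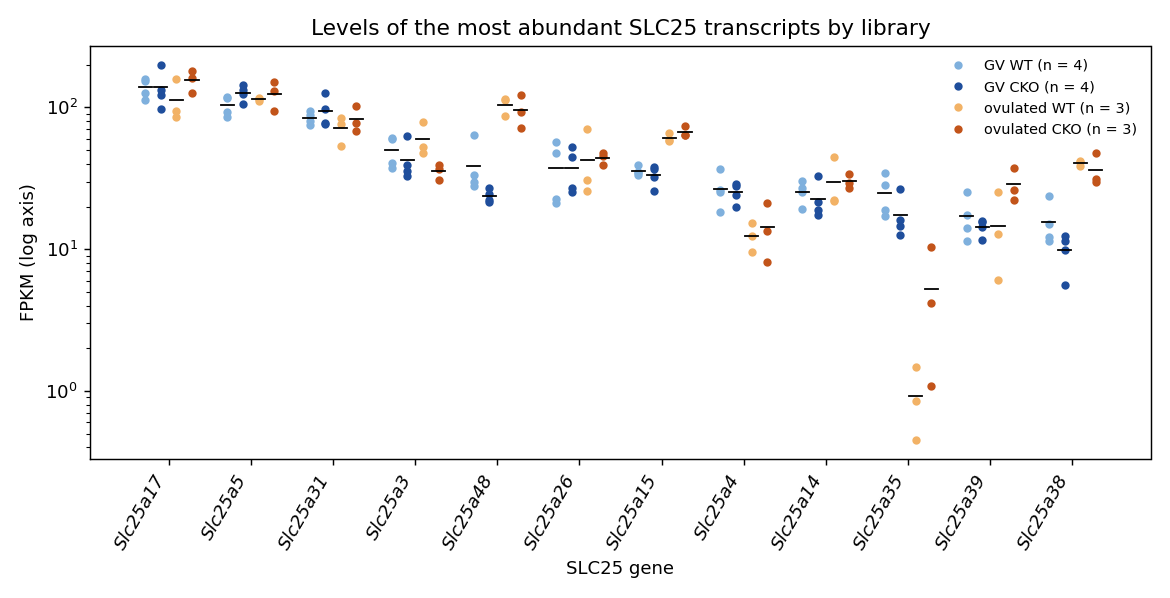
FPKM on a log axis for 11 of the 12 members with the highest mean in GV WT and for Slc25a38, which is among the first 8 in ovulated WT; points are libraries, black bars are group means, with 4 libraries in each GV group and 3 in each ovulated group. Slc25a17, Slc25a5 and Slc25a31 are near the top in all groups, and Slc25a35 is lower in ovulated oocytes of both genotypes.

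The 3 ADP/ATP carriers can be set against each other per length. Slc25a31 made up 39.4 ± 4.41% of their summed FPKM in GV WT (SD, n = 4), 38.1 ± 4.42% in GV CKO (SD, n = 4), 35.8 ± 4.85% in ovulated WT (SD, n = 3) and 37.5 ± 5.92% in ovulated CKO (SD, n = 3). Slc25a5 held 48.1 ± 7.30%, 51.5 ± 3.94%, 57.9 ± 4.53% and 56.2 ± 3.31% in the same order of groups. Slc25a4, the form of heart and muscle, held 12.4 ± 3.65%, 10.4 ± 2.24%, 6.29 ± 1.34% and 6.39 ± 2.80%. Slc25a5 had the highest mean share in each of the 4 groups, Slc25a31 came next, and Slc25a4 was the smallest in every library.

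**Figure D2:**
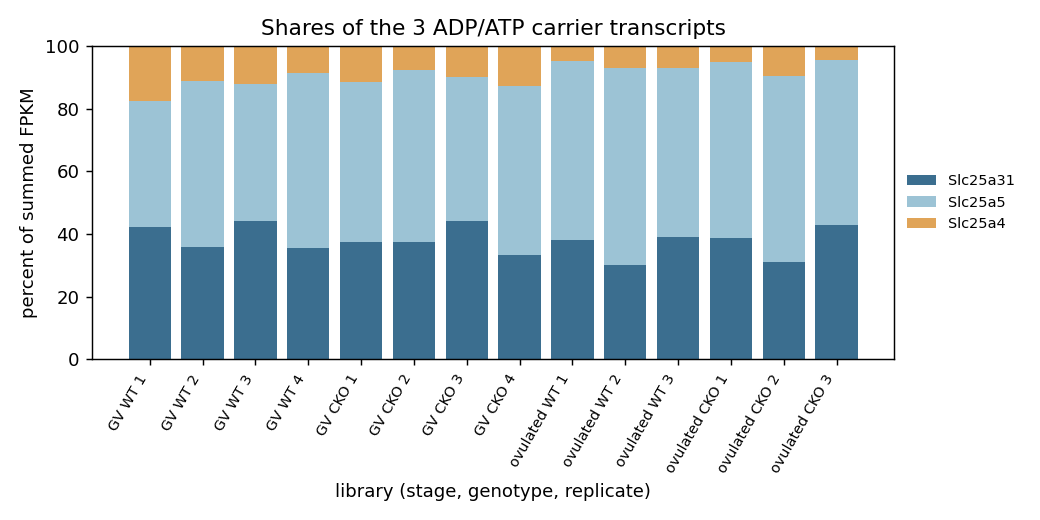
Share of the summed FPKM of the 3 ADP/ATP carrier genes (percent, stacked to 100) taken by Slc25a31, Slc25a5 and Slc25a4 in each of the 14 libraries. Slc25a4 has the smallest share throughout, from 4.51% to 17.4%.

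Summed over the members, CPM was 1242 ± 94.6 in GV WT (SD, n = 4), 1321 ± 170 in GV CKO (SD, n = 4), 1168 ± 232 in ovulated WT (SD, n = 3) and 1168 ± 65.7 in ovulated CKO (SD, n = 3). The group ranges overlapped. Under scaling to total counts the CKO direction turned, with 1081 ± 194 in GV CKO (SD, n = 4) and 1453 ± 58.0 in ovulated CKO (SD, n = 3), and the highest GV CKO library, 1371, was below the lowest ovulated CKO library, 1387. In WT it turned too, from 1152 ± 178 in GV (SD, n = 4) to 1360 ± 88.2 in ovulated oocytes (SD, n = 3), with overlap. The 5 most abundant members made up 60.3% to 65.4% of the summed FPKM as group means.

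Maturation was the first comparison, ovulated against GV oocytes within each genotype, tested with edgeR on genes in both tables with p-values adjusted over 13158 genes. Slc25a35 fell in both genotypes, and Slc25a16, Slc25a38, Slc25a44 and Slc25a48 rose in both, each of the 5 under all 14 alternatives run for either genotype. In WT, 19 of the 36 members tested (52.8%) passed, 9 higher and 10 lower in ovulated oocytes. In CKO, 20 of 36 (55.6%) passed, 8 higher and 12 lower. Among all genes tested, 63.7% passed in WT (29.7% higher, 34% lower) and 55.7% in CKO (25.8% higher, 29.9% lower), so the share of members that passed was near or below the background. The median log2 fold change of the 36 members was 0.15 in WT and −0.10 in CKO, against −0.08 and −0.14 over all genes.

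Scaling decides the balance of directions. Under scaling to total counts the median log2 fold change of all genes moved to 0.26 in WT and 0.45 in CKO, and 12 members were higher and 7 lower in WT, 12 higher and 2 lower in CKO. Of all genes 60.7% passed in WT under that scaling (34% higher, 26.7% lower) and 52.8% in CKO (35.6% higher, 17.2% lower). CPM is a share of the RNA sequenced, so less RNA of a gene per oocyte and more RNA of other genes cannot be told apart. RNA was copied from its poly(A) tail, so a change in tail length may also change CPM. The part of tail length in the stage results was not tested. Passing under both scalings and in both genotypes were 8 members, 6 of them higher (Slc25a16, Slc25a23, Slc25a32, Slc25a38, Slc25a44 and Slc25a48) and 2 lower, among these Slc25a35. In CKO, where this scaling moved the median of all genes further, log2 fold changes under it were 2.30, 2.59, 1.33, 1.90, 1.68 and 1.85 for the 6 that rose, in that order, and −1.93 for Slc25a35. The share of all genes that passed under both scalings and in both genotypes was not computed, so the count of 8 has no background. With TMM scaling alone, 49.7% of all genes tested and 41.7% of members tested passed in both genotypes.

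The WT and CKO stage comparisons share no library. Of the 36 members, 15 passed in both, all in the same direction, which is 78.9% of the WT calls and 75.0% of the CKO calls. Over all genes tested, the calls in both were 78% of the WT calls and 89.1% of the CKO calls, and 6535 of these 6536 genes had the same direction, so the members' overlap was near or below that of all genes. The 6 higher in both are those just named, and the 9 lower in both included Slc25a1, Slc25a4, Slc25a10, Slc25a11, Slc25a20, Slc25a28, Slc25a35 and Slc25a51. Slc25a21, Slc25a40 and Slc25a46 passed as higher and Slc25a39 as lower in WT alone, while Slc25a22 and Slc25a25 passed as higher and Slc25a3, Slc25a30 and Slc25a31 as lower in CKO alone. For none of these 9 did the difference between the genotypes pass its own test, given further on. The other 12 passed in neither comparison.

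**Figure D3:**
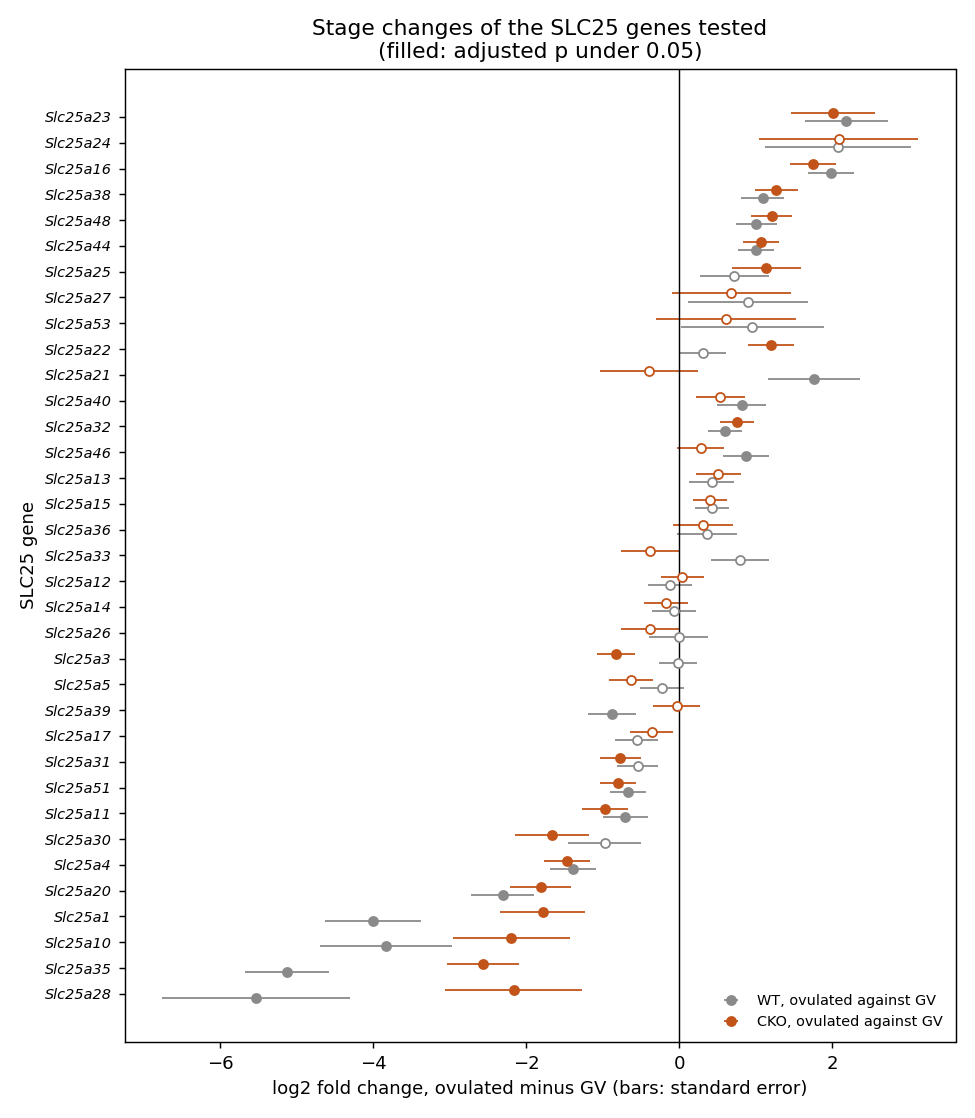
log2 fold change of ovulated against GV oocytes for 35 of the 36 members tested, WT in grey and CKO in orange, with standard errors as bars and filled points for an edgeR adjusted p under 0.05. The filled pairs on the same side of 0 are 14 of the 15 members that passed in both genotypes, 6 higher and 8 lower.

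Carriers of adenine nucleotides, phosphate and coenzyme A come first. In this group 2 of 9 members tested rose and 1 fell in WT, and 3 rose and 3 fell in CKO. For this group and those below, the share of all genes that passed was 63.7% in WT and 55.7% in CKO. The groups are small, so their counts are a description. Slc25a16 (gene ID 73132, mm10 chromosome 10, 62920632 to 62946494), linked to coenzyme A in the matrix, had 8.32, 13.5, 14.9 and 10.3 CPM in GV WT and 57.8, 38.7 and 42.9 CPM in ovulated WT. In CKO it had 18.4, 13.8, 11.5 and 8.67 CPM at the GV stage and 38.2, 34.8 and 59.2 CPM after ovulation. Every ovulated library was above every GV library. The rise was 3.95-fold in WT (log2 fold change 1.98, SE 0.30, edgeR adjusted p = 3.5e-05) and 3.37-fold in CKO (log2 fold change 1.75, SE 0.30, edgeR adjusted p = 0.00015). RefSeq places the pseudogene Gm16128 and a small nucleolar RNA, neither listed in the tables, within Slc25a16.

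Slc25a23, a calcium-regulated carrier that exchanges ATP-Mg for phosphate, was low throughout. It had 0.428, 0.554, 1.12 and 0.603 CPM in GV WT, 1.45, 6.27 and 1.55 CPM in ovulated WT, 1.01, 0.594, 0.698 and 0.442 CPM in GV CKO and 2.79, 3.81 and 1.78 CPM in ovulated CKO. Ovulated libraries were above GV libraries in both genotypes, and ovulated WT replicate 2 was far above its group. It rose in WT (log2 fold change 2.18, SE 0.54, edgeR adjusted p = 0.0023) and in CKO (log2 fold change 2.01, SE 0.55, edgeR adjusted p = 0.0052), but without that library the WT log2 fold change was 1.09 and did not pass (adjusted p = 0.062). Its relative Slc25a25 passed in CKO alone, with 1.06, 0.643, 1.18 and 3.20 CPM at the GV stage and 3.35, 3.40 and 3.23 CPM after ovulation (log2 fold change 1.14, SE 0.46, edgeR adjusted p = 0.042). That call was lost without any of 6 CKO libraries, all but GV CKO replicate 4 (adjusted p from 0.079 to 0.097), and without that replicate the log2 fold change was 1.91. Slc25a25 overlaps Naif1 by 1014 bases, and the group means of Naif1 were at most 0.567 CPM. Slc25a24, of the same kind, did not pass in either genotype.

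Of the ADP/ATP carriers, Slc25a4 fell from 37.1, 33.1, 25.2 and 27.8 CPM in GV WT to 10.1, 10.1 and 15.1 CPM in ovulated WT, and from 29.8, 29.8, 29.2 and 47.8 to 11.9, 17.1 and 7.98 CPM in CKO. The stages did not overlap in either genotype, with log2 fold changes in WT of −1.39, adjusted p = 0.00079 and in CKO of −1.47, adjusted p = 0.00069. Under scaling to total counts the CKO change was −0.80 and did not pass (adjusted p = 0.067). Slc25a31 had log2 fold changes of −0.54, adjusted p = 0.081 in WT and −0.77, adjusted p = 0.021 in CKO, so it passed in CKO alone. The CKO call was lost without GV CKO replicate 2 or 4 or ovulated CKO replicate 2 (adjusted p from 0.050 to 0.083) and under scaling to total counts (−0.18, adjusted p = 0.58). Slc25a5 did not pass in WT (−0.22, adjusted p = 0.51) or in CKO (−0.63, adjusted p = 0.075).

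The phosphate carrier Slc25a3, which serves ATP synthesis and delivers copper to cytochrome oxidase, had 47.1, 62.8, 76.9 and 75.8 CPM in GV CKO and 31.6, 34.7 and 44.8 CPM in ovulated CKO. These libraries did not overlap, and the fall passed (−0.83, adjusted p = 0.010), except without GV CKO replicate 4 (adjusted p = 0.055) and under scaling to total counts (−0.25, adjusted p = 0.52). In WT its stages overlapped, at 71.8, 61.9, 67.8 and 65.2 CPM and 58.7, 49.7 and 89.8 CPM (−0.01, adjusted p = 0.96). The peroxisomal Slc25a17 did not pass in either genotype.

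Among nucleotide and cofactor carriers, 1 of 6 rose and 2 fell in each genotype. Slc25a51, the mitochondrial NAD carrier, fell from 34.8, 35.0, 27.7 and 32.9 to 20.7, 14.7 and 25.9 CPM in WT (log2 fold change −0.67, SE 0.24, edgeR adjusted p = 0.019) and from 30.7, 37.7, 30.6 and 40.2 to 19.2, 18.7 and 22.1 CPM in CKO (log2 fold change −0.80, SE 0.24, edgeR adjusted p = 0.0088). The stages did not overlap in WT or CKO, yet neither fall passed under scaling to total counts (adjusted p = 0.29 and 0.60), nor did the WT fall without GV WT replicate 2 or 4 or ovulated WT replicate 2 (adjusted p from 0.051 to 0.070). Slc25a32, which carries folate and FAD, rose from 39.6, 52.2, 37.1 and 43.5 to 76.5, 48.2 and 70.4 CPM in WT (log2 fold change 0.59, SE 0.22, edgeR adjusted p = 0.028) and from 36.8, 35.7, 39.7 and 40.4 to 73.8, 51.1 and 68.4 CPM in CKO (log2 fold change 0.76, SE 0.22, edgeR adjusted p = 0.0085). Its WT stages overlapped and its CKO stages did not. The WT call was lost without GV WT replicate 1 or 3 or ovulated WT replicate 1 or 3 (adjusted p from 0.068 to 0.10). The pyrimidine nucleotide carriers Slc25a33 and Slc25a36 and the S-adenosylmethionine carrier Slc25a26 passed in neither genotype.

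Of 7 keto acid, citrate and uncoupling-like carriers tested, 1 rose and 3 fell in WT, and 0 rose and 4 fell in CKO. Slc25a1 (gene ID 13358, mm10 chromosome 16, 17925211 to 17928219) exports citrate, the source of cytosolic acetyl coenzyme A. Its values were 22.9, 17.1, 17.0 and 24.1 CPM in GV WT and 1.17, 1.95 and 0.642 CPM in ovulated WT (log2 fold change −4.00, SE 0.63, edgeR adjusted p = 4.8e-05). In CKO they were 16.0, 18.4, 10.6 and 24.7 CPM and 3.07, 10.9 and 1.18 CPM (log2 fold change −1.78, SE 0.56, edgeR adjusted p = 0.012). The WT stages were far apart, whereas ovulated CKO replicate 2 lay within the GV CKO range. Without that replicate the CKO log2 fold change was −3.06. Without GV CKO replicate 4 or ovulated CKO replicate 1, and under scaling to total counts, the CKO fall did not pass (adjusted p = 0.061, 0.060 and 0.14).

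Slc25a10, which exchanges dicarboxylates for phosphate, was low at 2.57, 1.15, 1.09 and 1.21 CPM in GV WT and 0.177, 0 and 0.135 CPM in ovulated WT, with ovulated WT counts of 5, 0 and 4. It passed in WT (log2 fold change −3.84, SE 0.86, edgeR adjusted p = 0.0010) and in CKO (log2 fold change −2.20, SE 0.77, edgeR adjusted p = 0.022). The CKO call was lost without GV CKO replicate 4, ovulated CKO replicate 2 or ovulated CKO replicate 3 (adjusted p from 0.055 to 0.066) and under scaling to total counts (adjusted p = 0.11). Without ovulated CKO replicate 1 its log2 fold change was −3.06, and without ovulated WT replicate 1 that of WT was −4.46.

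Slc25a11, the oxoglutarate and malate carrier of the malate-aspartate shuttle, fell by less. It went from 18.0, 19.1, 13.5 and 17.3 to 10.9, 6.04 and 14.3 CPM in WT (log2 fold change −0.71, SE 0.29, edgeR adjusted p = 0.046) and from 17.4, 17.4, 13.9 and 15.5 to 5.92, 9.12 and 9.46 CPM in CKO (log2 fold change −0.97, SE 0.30, edgeR adjusted p = 0.011). The WT stages overlapped, and the WT call was lost in 9 of 14 alternatives, among them without GV WT replicate 1, 2 or 4 or ovulated WT replicate 1 or 2 (adjusted p from 0.073 to 0.16). The CKO call was lost without ovulated CKO replicate 1 (adjusted p = 0.054), and both were lost under scaling to total counts. The gene overlaps Rnf167 by 302 bases in RefSeq, and Rnf167 went from a mean of 49.9 to 9.14 CPM in WT and from 42.2 to 16.6 in CKO. The strand used in counting is not given in the sources used here, so reads of the overlap cannot be told apart.

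Slc25a21, the oxodicarboxylate carrier, rose in WT from 0.526, 0.298, 0.362 and 0.754 to 1.66, 1.11 and 2.16 CPM (log2 fold change 1.76, SE 0.60, edgeR adjusted p = 0.016), a call lost without ovulated WT replicate 3 (adjusted p = 0.059). In CKO it went from 0.211, 0.198, 0.845 and 0.166 to 0.341, 0.219 and 0.269 CPM, with overlapping stages (log2 fold change −0.40, SE 0.64, edgeR adjusted p = 0.62). The uncoupling-like Slc25a30 passed as lower in CKO alone, from 2.75, 4.01, 6.36 and 5.80 to 1.58, 1.56 and 1.31 CPM (−1.67, adjusted p = 0.0081), which did not hold under scaling to total counts (adjusted p = 0.10). Its relatives Slc25a14 and Slc25a27 passed in neither genotype.

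Of 7 amino acid and carnitine carriers tested, 2 rose and 1 fell in WT, and 3 rose and 1 fell in CKO. Slc25a38 (gene ID 208638, mm10 chromosome 9, 120110377 to 120126093) brings glycine into the matrix for the first step of heme synthesis, whose enzyme CLPX is known to act on. It had 34.3, 22.7, 20.7 and 24.3 CPM in GV WT and 57.8, 48.7 and 56.1 CPM in ovulated WT (log2 fold change 1.09, SE 0.28, edgeR adjusted p = 0.0028). In CKO it had 21.6, 11.9, 14.7 and 26.6 CPM and 37.2, 54.8 and 43.2 CPM (log2 fold change 1.27, SE 0.28, edgeR adjusted p = 0.0012). The stages did not overlap, and both rises were kept in all 14 alternatives. Counts of Slc25a38 were fractional in some libraries, as were those of Slc25a11, Slc25a25, Slc25a26, Slc25a42 and Slc25a51. Fractions may mark reads shared with another gene or copy, but the counting tool is not given and this was not checked.

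Slc25a44 (gene ID 229517, mm10 chromosome 3, 88410494 to 88425141) carries branched-chain amino acids. It rose from 14.8, 19.3, 16.1 and 21.6 to 36.2, 38.9 and 32.7 CPM in WT (log2 fold change 1.00, SE 0.23, edgeR adjusted p = 0.0014) and from 23.7, 18.4, 14.9 and 19.4 to 32.1, 47.7 and 40.4 CPM in CKO (log2 fold change 1.07, SE 0.23, edgeR adjusted p = 0.0011). The stages did not overlap, and both calls were kept in all 14 alternatives. The glutamate carrier Slc25a22 passed in CKO alone, from 2.54, 2.77, 3.49 and 3.70 to 6.05, 6.49 and 8.99 CPM (1.20, adjusted p = 0.0030), against 0.31, adjusted p = 0.37 in WT.

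Slc25a20, the carnitine and acylcarnitine carrier that admits fatty acids to oxidation, fell. Its values were 11.6, 6.13, 8.09 and 5.28 CPM in GV WT and 1.63, 1.72 and 1.35 CPM in ovulated WT (log2 fold change −2.31, SE 0.41, edgeR adjusted p = 0.00015), and 5.03, 6.98, 8.12 and 8.23 CPM and 2.67, 2.49 and 0.875 CPM in CKO (log2 fold change −1.81, SE 0.40, edgeR adjusted p = 0.0012). The stages were apart in both genotypes, but under scaling to total counts the CKO fall did not pass (adjusted p = 0.053). The aspartate and glutamate carriers Slc25a12 and Slc25a13 and the ornithine carrier Slc25a15 passed in neither genotype.

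All 3 tested iron and glutathione carriers passed in WT, 1 higher and 2 lower, and 1 passed in CKO, as lower. Of all genes, 63.7% passed in WT and 55.7% in CKO, so counts out of 3 say little about the group. Slc25a28, mitoferrin 2, which imports iron, had 0.855, 1.62, 1.71 and 0.553 CPM in GV WT, and its counts in ovulated WT were 0, 2 and 0. In CKO it had 2.28, 0.940, 1.65 and 0.939 CPM at the GV stage and counts of 4, 30 and 0 after ovulation. The fall passed in WT (edgeR adjusted p = 0.00094) and in CKO (adjusted p = 0.0498), but with so few counts its size depends on the prior count of the fit and is not given. The CKO call was lost in 10 of 14 alternatives, including without any CKO library other than ovulated CKO replicate 2. Slc25a37, mitoferrin 1, had at most 16 counts in a library and was not tested.

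Slc25a39, which carries glutathione, fell in WT from 32.5, 18.4, 20.3 and 26.5 to 15.2, 17.5 and 7.06 CPM (log2 fold change −0.88, SE 0.32, edgeR adjusted p = 0.023), without overlap, while its values in CKO were 19.4, 22.2, 21.2 and 32.4 and 20.4, 26.7 and 22.7 CPM (log2 fold change −0.03, SE 0.31, edgeR adjusted p = 0.93). The WT call was lost without GV WT replicate 1 or 4 or ovulated WT replicate 3 (adjusted p from 0.073 to 0.13) and under scaling to total counts (adjusted p = 0.23). Its relative Slc25a40 rose in WT from 7.11, 6.43, 9.21 and 8.49 to 18.2, 9.63 and 13.4 CPM (log2 fold change 0.81, SE 0.32, edgeR adjusted p = 0.034), again without overlap, and the call was lost without GV WT replicate 1 or 2 or ovulated WT replicate 1 or 3 (adjusted p from 0.062 to 0.18). In CKO Slc25a40 did not pass (0.54, adjusted p = 0.16). Slc25a39 made up 85.2% ± 3.44 of the FPKM of this pair in GV WT (SD, n = 4) and 65.7% ± 16.3 in ovulated WT (SD, n = 3). The WT libraries overlapped, at 81.1% to 89.5% in GV and 50.5% to 83.0% in ovulated oocytes. In CKO the share was 80.5% ± 5.71 in GV (SD, n = 4) and 78.3% ± 5.89 in ovulated oocytes (SD, n = 3).

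Of 4 tested carriers that sit in the outer membrane or have no long-settled substrate, 2 rose and 1 fell in WT and 1 rose and 1 fell in CKO. Slc25a35 (gene ID 71998, mm10 chromosome 11, 68968096 to 68972516), whose substrate is not settled, had 49.9, 34.7, 37.8 and 36.8 CPM in GV WT and 0.638, 1.60 and 1.15 CPM in ovulated WT, a 34.9-fold fall (log2 fold change −5.12, SE 0.55, edgeR adjusted p = 2.0e-06). In CKO it had 26.8, 26.1, 39.3 and 34.4 CPM and 5.08, 9.54 and 1.38 CPM, a 5.92-fold fall (log2 fold change −2.56, SE 0.47, edgeR adjusted p = 0.00028). The stages were far apart in both genotypes, and both calls were kept in all 14 alternatives, with a CKO log2 fold change of −3.32 without ovulated CKO replicate 2. Slc25a35 overlaps Rangrf by 33 bases, and Rangrf went from a mean of 5.02 to 0.74 CPM in WT and from 5.98 to 1.77 in CKO.

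Slc25a48 (gene ID 328258, mm10 chromosome 13, 56437960 to 56472367) rose from 90.0, 54.7, 45.4 and 61.2 to 153, 114 and 111 CPM in WT (log2 fold change 1.00, SE 0.27, edgeR adjusted p = 0.0037) and from 46.5, 43.7, 32.7 and 57.7 to 78.9, 122 and 112 CPM in CKO (log2 fold change 1.21, SE 0.27, edgeR adjusted p = 0.0012). The stages were apart and both calls were kept in all 14 alternatives. Slc25a46, an outer membrane protein of mitochondrial shape, rose in WT from 5.30, 5.07, 5.07 and 4.92 to 11.5, 7.53 and 8.92 CPM (log2 fold change 0.87, SE 0.30, edgeR adjusted p = 0.019), which was lost without ovulated WT replicate 1 (adjusted p = 0.088), and did not pass in CKO (0.28, adjusted p = 0.45). Slc25a53 passed in neither genotype.

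**Figure D4:**
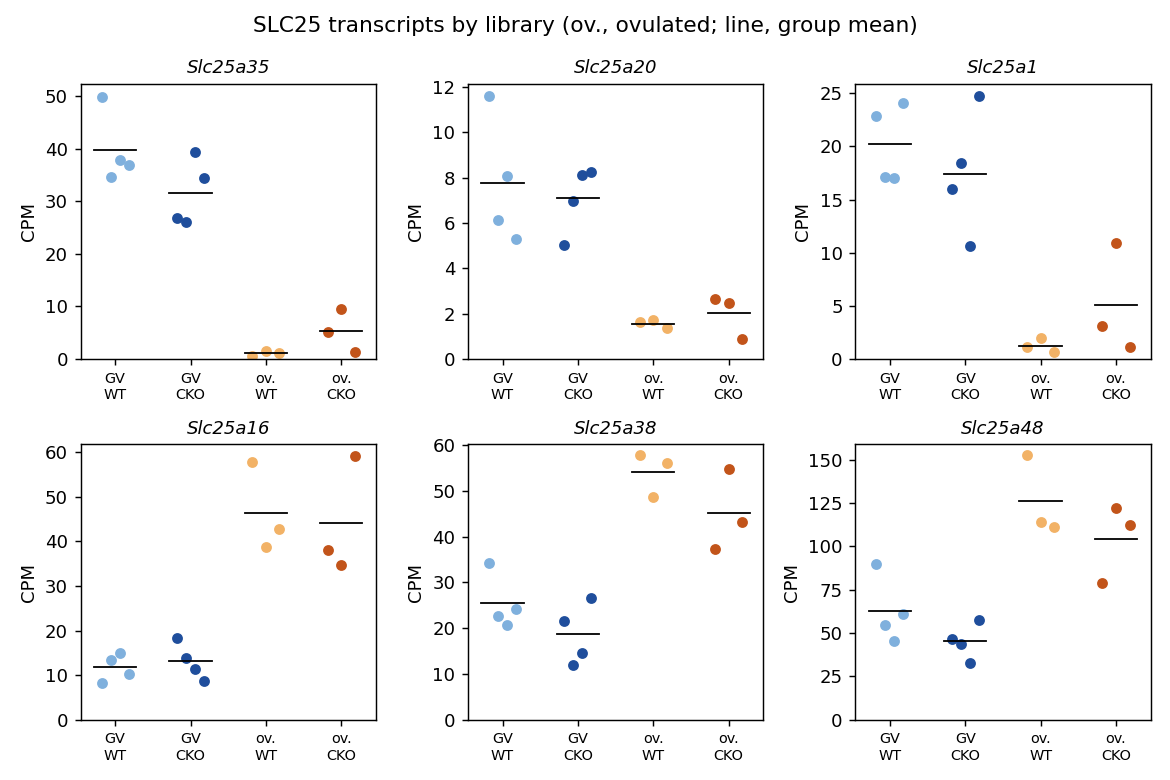
CPM by library for 3 members that fell (Slc25a35, Slc25a20, Slc25a1) and 3 that rose (Slc25a16, Slc25a38, Slc25a48) between GV and ovulated oocytes; points are libraries, lines are group means, with 4 libraries in each GV group and 3 in each ovulated group. In the upper row 2 of the 3 ovulated CKO libraries lie above all ovulated WT libraries.

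Clpx loss was the second comparison, CKO against WT within each stage. No member passed at either stage: 0 of 33 tested in GV oocytes and 0 of 34 in ovulated oocytes by edgeR. The backgrounds were also near 0, at 0.0245% of 12265 genes and 0.0083% of 12044 genes. At an unadjusted p under 0.05 there were 1 of 33 members in GV oocytes, against 5.74% of all genes, and 5 of 34 in ovulated oocytes, against 7.76%. DESeq2 and limma-voom called 0 members at both stages. The median log2 fold change of the members was 0.01 in GV oocytes (all genes 0.02) and −0.01 in ovulated oocytes (all genes −0.00048).

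In GV oocytes the smallest p was that of Slc25a13, the aspartate and glutamate carrier of the malate-aspartate shuttle, which had 18.6, 23.6, 21.5 and 27.2 CPM in WT and 16.0, 16.9, 10.4 and 9.72 CPM in CKO. It was the 1 member of 33 whose genotypes did not overlap, where 3.82% of all genes did not (log2 fold change −0.79, adjusted p = 0.73). The next 5 by p were Slc25a48 (−0.48, adjusted p = 0.83), Slc25a33 (0.56, adjusted p = 0.84), Slc25a31 (0.33, adjusted p = 0.84), Slc25a40 (0.48, adjusted p = 0.84) and Slc25a38 (−0.45, adjusted p = 0.84). Slc25a38 stood at 21.6, 11.9, 14.7 and 26.6 CPM in GV CKO against 34.3, 22.7, 20.7 and 24.3 CPM in GV WT, with overlap. No setting tried brought a member past the threshold in GV oocytes.

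In ovulated oocytes the 6 smallest p-values included those of Slc25a21, Slc25a35, Slc25a3, Slc25a1 and Slc25a39, and no member was past the threshold. Slc25a21 had 1.66, 1.11 and 2.16 CPM in WT and 0.341, 0.219 and 0.269 CPM in CKO, all 3 CKO libraries being lower (−2.58, adjusted p = 0.52). Slc25a3 had 58.7, 49.7 and 89.8 CPM in WT and 31.6, 34.7 and 44.8 CPM in CKO, again without overlap (−0.84, adjusted p = 0.58). Slc25a39, at 15.2, 17.5 and 7.06 CPM in WT and 20.4, 26.7 and 22.7 CPM in CKO, was higher by CPM in every CKO library (0.79, adjusted p = 0.66). By FPKM its genotypes overlapped, at 12.8, 25.1 and 6.06 in WT and 26.3, 37.6 and 22.3 in CKO. Slc25a21, Slc25a3 and Slc25a39 were among 4 of 34 members whose genotypes did not overlap by CPM, 2 higher and 2 lower, where 10.4% of all genes did not overlap.

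Slc25a35 and Slc25a1, which fell over maturation, had higher means in ovulated CKO than in ovulated WT oocytes. Slc25a35 was at 0.638, 1.60 and 1.15 CPM in WT and 5.08, 9.54 and 1.38 CPM in CKO (2.19, adjusted p = 0.52). Slc25a1 was at 1.17, 1.95 and 0.642 and 3.07, 10.9 and 1.18 CPM (1.97, adjusted p = 0.60). For both of them CKO replicates 1 and 2 were above all WT libraries, and CKO replicate 3 was close to or within the WT range. Without CKO replicate 3, Slc25a35 passed (log2 fold change 2.59, adjusted p = 0.048), and in that fit 1.6% of all genes passed. Slc25a1 did not pass in it (adjusted p = 0.13).

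The ovulated libraries differed in how far their whole transcriptome lay towards the GV stage. On a line from the other ovulated libraries (0%) to the GV mean (100%), over 13122 genes without the members, ovulated CKO replicates 1, 2 and 3 stood at 29.9%, 22.0% and −16.4%, and ovulated WT replicates 1, 2 and 3 at −21.7%, −3.68% and 7.07%. The summed CPM of Slc25a1 and Slc25a35 was 8.15, 20.4 and 2.56 in those CKO libraries, 1.81, 3.56 and 1.79 in those WT libraries, and between 42.9 and 72.8 in GV libraries. The 2 CKO libraries that lay nearest the GV stage had the highest summed CPM of these carriers among ovulated libraries. Both carriers were higher at the GV stage and were taken up here for their ovulated CKO values. The match is therefore no separate evidence. The part of this position in the genotype values was not tested.

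**Figure D5:**
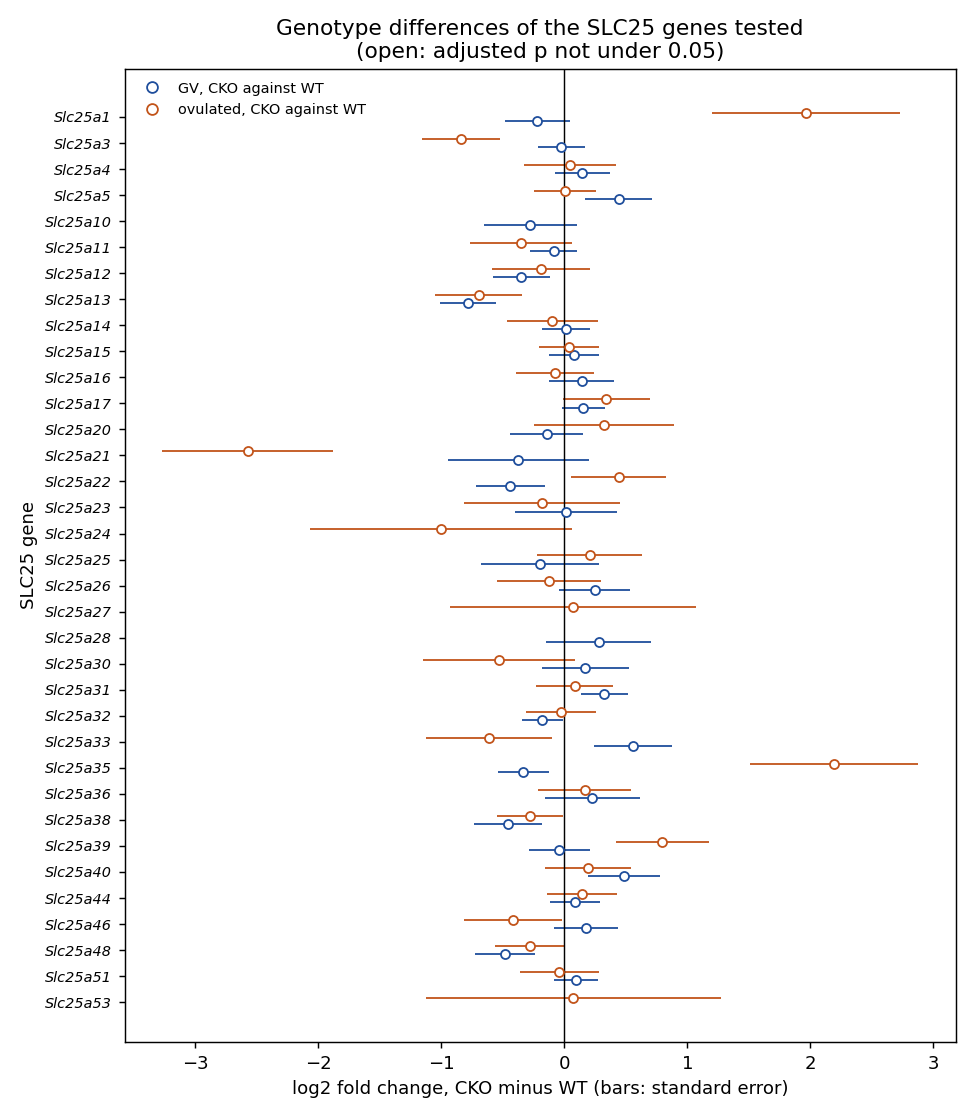
log2 fold change of CKO against WT with standard errors for 32 members in GV (blue) and 33 in ovulated (orange) oocytes; open points have an edgeR adjusted p that is not under 0.05. All points are open, and those farthest from 0 in ovulated oocytes are Slc25a21 on the left and Slc25a35 and Slc25a1 on the right.

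Whether the effect of Clpx loss differed between the stages was tested as an interaction over the 14 libraries, adjusted over 13158 genes. None of 36 members passed by edgeR, where 0.0076% of all genes did, and 7 members had an unadjusted p under 0.05, against 9.16% of all genes. Among the 6 smallest p-values were those of Slc25a35 (2.56, adjusted p = 0.28), Slc25a1 (2.22, adjusted p = 0.37), Slc25a21 (−2.16, adjusted p = 0.47), Slc25a3 (−0.81, adjusted p = 0.50) and Slc25a28 (adjusted p = 0.51). DESeq2 called Slc25a35 (adjusted p = 0.034). Without ovulated CKO replicate 3, edgeR called Slc25a35 (log2 difference 3.00, adjusted p = 0.0029) and Slc25a1 (2.67, adjusted p = 0.030) among 3 members, with 3.68% of all genes called in that fit. With all 14 libraries, Slc25a35 thus passed by DESeq2 and not by edgeR, and Slc25a1 by neither.

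The remaining members were scarce. In no comparison were 10 of the 46 tested, namely Slc25a2, Slc25a18, Slc25a29, Slc25a37, Slc25a41, Slc25a42, Slc25a43, Slc25a45, Slc25a47 and Slc25a54, whose highest count in any library was 16. Their level is at the limit of detection here, which does not show that the genes are silent.

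Other mitochondrial transport genes, a list of 33 with the uncoupling proteins, voltage-dependent anion channels, pyruvate carriers, sideroflexins and the calcium uniporter, were read alongside, and 27 were tested. In WT 10 rose and 11 fell over maturation (77.8%, against 63.7% of all genes), in CKO 8 rose and 8 fell (59.3%, against 55.7%), and none passed between genotypes at either stage or in the interaction. Mtch2, an outer membrane relative of the carriers, fell over maturation in WT (mean 8.93 to 1.57 CPM, log2 fold change −2.50, SE 0.53, edgeR adjusted p = 0.00061) and in CKO (10.3 to 2.64 CPM, log2 fold change −1.96, SE 0.51, edgeR adjusted p = 0.0039). Mtch1 fell in WT (5.81 to 1.43 CPM, log2 fold change −2.01, SE 0.69, edgeR adjusted p = 0.018) and did not pass in CKO (5.26 to 3.30 CPM, log2 fold change −0.67, SE 0.65, edgeR adjusted p = 0.40).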

How the data were processed

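The members and gene lists were chosen with earlier results of these data known. For each stage the authors deposited expected counts (between 14.45% and 16.32% of a library's values were fractional) and FPKM, in which length and depth were already accounted for. The genome build was mm10, per the submitters' processing notes, and the aligner, counting tool and strand setting are not given in the sources used here. Each deposited count column was matched to its library by the name given in the labels.

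Counts were rounded and tested with edgeR 4.0.16 in R 4.3.3 (quasi-likelihood F-test, robust, TMM, filterByExpr with a minimum count of 10), adjusted by Benjamini-Hochberg over all genes tested, with a threshold of 0.05. Genotype tests used 1 stage each, and stage and interaction tests 1 fit of 14 libraries on genes sharing a gene ID (16417, of which 13158 were tested). Alternatives were DESeq2 1.42.0, limma-voom and limma 3.58.1 on log2(FPKM + 1), other scalings, no filter, a replicate block and each library left out. Members were named if they passed, led in FPKM, had 1 of the 6 smallest p-values or a textbook role that fits the study. No pair of replicates was a copy (chi-square per degree of freedom at least 37.4). The fits were tested on simulated data, with changes set in genes of at least 10 CPM. Between genotypes, edgeR recovered 46% of 2-fold and 99% of 4-fold changes in GV oocytes. In ovulated oocytes it recovered 15% and 90%, and for the interaction 4% and 54%. Changes of about 2-fold between genotypes would thus often be missed. Positions and promoters are from RefSeq (GRCm38.p6). Values of 1 member are counted in the totals and not reported here.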

Additional observations from a re-analysis of the deposited data

Results flagged for a closer look

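Each of 70 groups of 4 GV libraries, from 35 members that met the rule for naming, was examined for a library set apart from the other 3 by more than Dixon's 95% limit, which chance exceeds in about 1 in 20 groups. This was met 4 times. Slc25a4 stood at 47.8 CPM in GV CKO replicate 4, against 29.2 to 29.8 CPM in the other 3 GV CKO libraries. Slc25a15 stood at 179 CPM in the same library, against 115 to 117 CPM in the other 3. Slc25a21 stood at 0.845 CPM in GV CKO replicate 3, against 0.166 to 0.211 CPM. Slc25a10 stood at 2.57 CPM in GV WT replicate 1, against 1.09 to 1.21 CPM in the other 3 GV WT libraries. All 4 were the highest library of their group by CPM. By FPKM, Slc25a15 in GV CKO replicate 4 (36.5) was below GV CKO replicate 3 (37.8). Slc25a4 in GV CKO replicate 4 was only slightly above GV CKO replicate 3 by FPKM. The flagged libraries of Slc25a21 (0.44 FPKM) and Slc25a10 (0.73 FPKM) were the highest of their groups by FPKM too. The rule was applied to CPM alone, and the part of scaling in these flags was not tested.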

How the results depend on the processing

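Directions were followed for members that passed between stages and for the 6 smallest p-values of each genotype test and of the interaction. Among these, no direction reversed in any alternative. Other values named in the text, such as those of members that did not pass between stages, were not followed in this way. In WT, 237 values of members that passed between stages kept their call and 29 lost it; in CKO 244 kept it and 36 lost it, the cause of each loss not tested. With 1 library left out, the members that passed numbered 15 to 18 in WT and 16 to 19 in CKO between stages, 0 between genotypes in GV oocytes, 0 to 1 in ovulated oocytes and 0 to 3 for the interaction, the 1 and the 3 both without ovulated CKO replicate 3. In those fits, between 7552 of 13488 and 8301 of 13485 genes passed between stages in WT. In CKO, between 6362 of 13521 and 7151 of 13137 genes did. DESeq2 called 1 member in the interaction. Over all genes, 3 passed between genotypes in GV oocytes (DESeq2 41, 6 without GV CKO replicate 1 or 4), 1 in ovulated oocytes (limma on log2 FPKM with no filter 0, DESeq2 131, 1 fit of 14 libraries 64, 201 without ovulated CKO replicate 3, 3 without ovulated WT replicate 3) and 1 for the interaction (limma-voom and the replicate block 0, DESeq2 64, 498 without ovulated CKO replicate 3, 0 to 2 without any other library). Scaling to total counts moved the median log2 fold change of all genes to −0.14 in GV and 0.09 in ovulated CKO against WT and to 0.25 for the interaction, and the mean summed CPM of the members to 1081 in GV CKO and 1453 in ovulated CKO. With the replicate number as a block, 18 members passed in WT and 21 in CKO between stages and 0 elsewhere. Of all 13158 genes tested between stages, 7850 passed in WT and 6847 in CKO with that block. Same-numbered WT and CKO libraries correlated between −0.217 and 0.287 in GV and between −0.185 and 0.197 in ovulated oocytes. The numbers were therefore not taken as pairs, and not every library correlated best with its own number. Counting error limits members under about 1 CPM.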
